A study of Mus musculus with 6 samples.

Results

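The genes examined are 10 that act in the brakes on the cell cycle, namely 7 genes of CDK inhibitors, the Rb and p53 genes and *Mdm2*, which acts against p53. They are *Cdkn1a*, *Cdkn1b*, *Cdkn1c*, *Cdkn2a*, *Cdkn2b*, *Cdkn2c*, *Cdkn2d*, *Rb1*, *Trp53* and *Mdm2*. They were picked by symbol from the 50600 genes of the count table, not by their values, though with earlier results of these data known. All 10 were found. RNA was sequenced from the cardiac side population (SP), the heart cells that pump out the dye Hoechst, sorted fresh from heart suspensions depleted of cardiomyocytes and erythrocytes. The 6 libraries comprised 3 from wild-type (wt) C57BL/6NRj mice and 3 from mice labelled flt3L-/- (strain label C57BL/6Flt3Ltml/mx, on a C57BL/6N background), a line made to lack the ligand of the receptor Flt3. The labels name no treatment, the animals were 8 to 12 weeks old, and each library held the sorted cells of 4 pooled mice. A wt and an flt3L-/- sort shared each of 3 sorting dates, 2 in 2016 and 1 in 2017, and these pairs are numbered 1 to 3.

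Cyclin-dependent kinases (CDKs) drive a cell from G1 into DNA synthesis by phosphorylating the retinoblastoma protein Rb, which otherwise holds the E2F transcription factors in check. The Cip/Kip inhibitors (p21, p27 and p57) bind a range of cyclin-CDK complexes, and the INK4 inhibitors (p16, p15, p18 and p19) bind CDK4 and CDK6. The transcription factor p53 induces *Cdkn1a* and also *Mdm2*, whose product marks p53 for degradation, and freshly isolated SP cells of the heart are known as a largely quiescent population.

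Some members have more than one transcription start, and the gene counts add the reads of all of them. For *Cdkn1a*, the most abundant member, both start regions are shown because the upstream one holds a sequence close to the p53 response element. For *Cdkn2a*, both are shown because the upstream start gives the p19Arf transcript and the downstream one gives p16Ink4a, so its single count mixes 2 proteins. The windows run from 250 bases before to 50 bases after the start, from RefSeq on GRCm38.p6, written 5′ to 3′ on the strand of the gene. The first lies at chr17:29090729-29091028 and the second at chr17:29093519-29093818, both on the plus strand. The third lies at chr4:89294570-89294869 and the fourth at chr4:89282143-89282442, both on the minus strand. Capitals mark, in this order, the p53 site, 2 GC boxes (GGGCGG) with a TATA sequence (TATAA), an E2F sequence (TTTCCCGC), and a GC box.
Cdkn1a, upstream start: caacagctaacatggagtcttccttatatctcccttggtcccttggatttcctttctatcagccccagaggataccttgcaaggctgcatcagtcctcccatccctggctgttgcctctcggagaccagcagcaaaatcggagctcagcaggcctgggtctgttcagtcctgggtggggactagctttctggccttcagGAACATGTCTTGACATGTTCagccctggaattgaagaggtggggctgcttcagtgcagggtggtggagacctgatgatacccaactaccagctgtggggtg
Cdkn1a, downstream start: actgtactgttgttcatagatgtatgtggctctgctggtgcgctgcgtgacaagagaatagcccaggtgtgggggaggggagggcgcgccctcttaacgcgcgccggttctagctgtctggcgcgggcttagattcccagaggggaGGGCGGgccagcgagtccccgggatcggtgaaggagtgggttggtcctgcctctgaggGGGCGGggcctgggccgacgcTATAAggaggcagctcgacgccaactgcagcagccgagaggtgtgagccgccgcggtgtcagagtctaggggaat
Cdkn2a, upstream start (p19Arf): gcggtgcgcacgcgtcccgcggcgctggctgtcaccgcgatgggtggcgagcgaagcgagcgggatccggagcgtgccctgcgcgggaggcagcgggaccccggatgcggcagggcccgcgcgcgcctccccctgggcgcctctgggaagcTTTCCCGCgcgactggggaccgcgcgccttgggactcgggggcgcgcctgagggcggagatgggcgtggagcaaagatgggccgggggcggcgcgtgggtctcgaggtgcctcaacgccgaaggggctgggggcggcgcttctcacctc
Cdkn2a, downstream start (p16Ink4a): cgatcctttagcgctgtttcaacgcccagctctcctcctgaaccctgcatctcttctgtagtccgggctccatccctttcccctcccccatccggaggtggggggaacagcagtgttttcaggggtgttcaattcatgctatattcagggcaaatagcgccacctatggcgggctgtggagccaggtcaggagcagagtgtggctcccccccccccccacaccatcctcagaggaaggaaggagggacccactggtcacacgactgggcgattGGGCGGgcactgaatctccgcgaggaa

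The sequence in capitals in the upstream window of *Cdkn1a* begins 51 bases and ends 32 bases before the start. It is made of 2 p53 half-sites without a spacer and departs from the full p53 consensus at 1 of 20 bases. Of all 32851 promoters in the table, 29 (0.0883%) held such a site with at most 1 mismatch. A single p53 half-site, found in 8.36% of promoters, also occurred in the windows of *Cdkn2d*, *Mdm2* and *Trp53*. In the p19Arf window the E2F sequence TTTCCCGC lay 99 to 92 bases before the start, and 1.07% of promoters held it on either strand. GGGCGG was far more common, in 35.7% of promoters, and TATAA occurred in 24.9%. Promoters were matched for 8 of the 10 members, with none for *Cdkn1c* and *Rb1*. A match describes letters only, and these data hold no measurement of binding.

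Values in CPM are counts relative to library size after TMM scaling in edgeR, and levels were compared between genes only as CPM per kb of merged exons. The libraries held 24370913 to 31145519 counts over all genes. CPM divides by the counts of the protein-coding genes tested after TMM scaling, 23565056 to 27455708 per library. At these sizes 3 counts, taken as the floor of detection, equal 0.109 to 0.127 CPM, a limit that covers counting error alone. Log2 fold changes set the libraries labelled flt3L-/- over wt in edgeR's quasi-likelihood test with the date as covariate, and p-values were adjusted by Benjamini-Hochberg over all 13475 genes tested. *Flt3l*, the targeted gene, was not lower in the libraries labelled flt3L-/- but higher in 3 of 3 pairs, with 13.6, 12.4 and 14.4 CPM against 8.67, 10.8 and 12.1 CPM in wt. Of its exon bases, 22.1% are shared with the same-strand gene Gm45713, so some of these reads cannot be assigned to *Flt3l* alone. Gene counts do not tell an intact transcript from a disrupted one, so they neither check nor contradict the genotype labels, on which every direction given here rests. Summed marker levels overlapped between groups for endothelial cells (6430 to 7811 CPM in wt, 6158 to 8109 CPM in flt3L-/-), fibroblasts (7566 to 17996 CPM and 3624 to 11587 CPM), pericytes and smooth muscle cells (441 to 900 CPM and 274 to 553 CPM), macrophages (48.1 to 1790 CPM and 93.2 to 974 CPM) and lymphocytes and NK cells (138 to 771 CPM and 105 to 318 CPM). Cardiomyocyte markers did not overlap, at 105 to 153 CPM in wt and 160.3 to 192 CPM in flt3L-/-. Within pairs, the lymphocyte and NK cell sum was lower in flt3L-/- in 3 of 3 (138 to 129, 329 to 318 and 771 to 105 CPM). Of the single genes tested, 11.5% were lower in all pairs. The macrophage sum was higher in flt3L-/- in pairs 1 and 2 (48.1 to 305 and 614 to 974 CPM) and lower in pair 3 (1790 to 93.2 CPM). The sums for endothelial cells, fibroblasts, and pericytes and smooth muscle cells also turned direction between pairs. The median log2 fold changes of the list genes were −1.16 for lymphocytes and NK cells, −0.75 for fibroblasts, −0.46 for pericytes and smooth muscle cells, −0.38 for macrophages, 0.17 for endothelial cells and 0.40 for cardiomyocytes, so the cell makeup of the groups was not shown to be alike. In bulk RNA, fewer cells of a type and less RNA per cell cannot be told apart.

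Per length, *Cdkn1a* and *Cdkn1c* stood far above the other members. *Cdkn1a* averaged 239 CPM per kb ± 46.4 (SD, n = 6), a level above that of 99.0% of the genes tested, and *Cdkn1c* averaged 188 ± 29.6, above 98.6%. The level of *Cdkn1a* was the higher one in 5 of 6 libraries, and the ranges of the pair overlapped (181 to 297 and 156 to 225 CPM per kb). *Cdkn2d* followed at 38.1 CPM per kb, with no library in the range of *Cdkn1c*. *Mdm2* (29.8 CPM per kb) and *Trp53* (21.6 CPM per kb) came next, each below the member before it in 6 of 6 libraries though with overlapping ranges. *Rb1* averaged 7.94, *Cdkn2c* 5.57 and *Cdkn2b* 4.39 CPM per kb, and the ranges of neighbours among these also overlapped. *Cdkn1b* (1.75 CPM per kb) and *Cdkn2a* (0.342 CPM per kb) were lowest, and neither shared its range with a neighbour. *Cdkn2a* stood above only 4.95% of the genes tested.

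**Figure D1:**
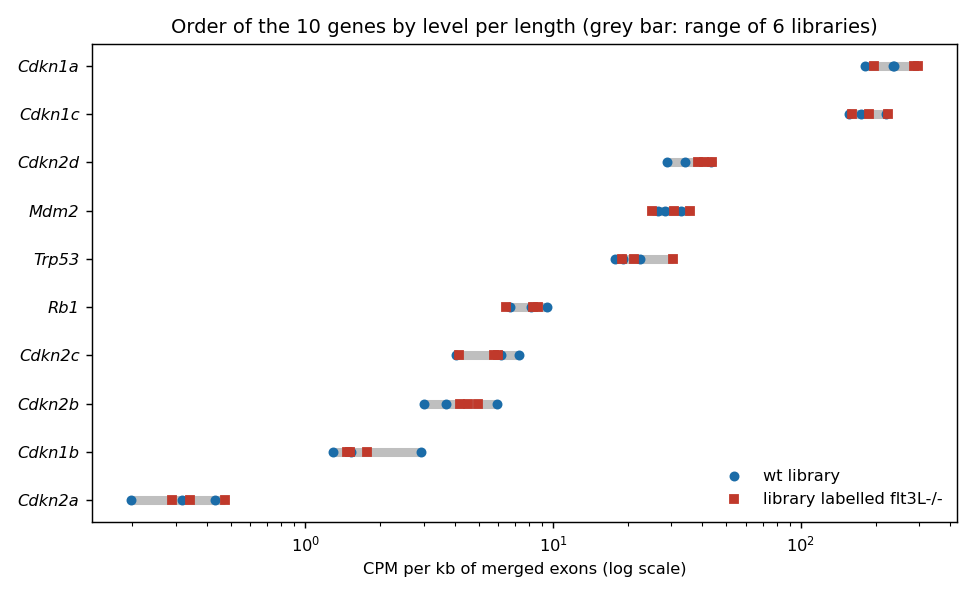
Levels of the 10 genes per length, as CPM per kb of merged exons on a log axis, with blue circles for the 3 wt libraries, red squares for the 3 libraries labelled flt3L-/- and a grey bar from the lowest to the highest library. *Cdkn1a* and *Cdkn1c* lie between 156 and 297 CPM per kb, and every *Cdkn2a* library lies under 0.473 CPM per kb.

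Within the Cip/Kip family, nearly all of the length-scaled signal came from *Cdkn1a*, with 55.5% ± 6.71 (SD, n = 6), and *Cdkn1c*, with 44.0% ± 6.75. *Cdkn1b* contributed 0.281% to 0.737%. Its p27 product is a widely expressed inhibitor whose abundance is set largely by degradation of the protein, which RNA counts do not measure. Within the INK4 family, *Cdkn2d* made up 78.5% ± 4.49 of the summed CPM per kb, *Cdkn2c* 11.7%, *Cdkn2b* 9.07% and *Cdkn2a* 0.703%. The family sums were 387 to 524 CPM per kb for Cip/Kip and 38.2 to 54.6 CPM per kb for INK4. Set against the kinases in the same library, the level per kb of *Cdkn1a* was 12.9 to 20.98 times that of *Cdk2* and 4.39 to 7.83 times that of *Cdk4*. For *Cdkn2d* the ratio to its target *Cdk4* was 0.730 to 1.14.

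None of the 9 members tested differed between the genotypes by the adjusted p-value, where 0% of the 13475 genes did (edgeR, threshold 0.05). At an unadjusted p under 0.05 the count was also 0 of 9 members, against 484 genes (3.59%) among all tested. DESeq2 called 21 genes and again 0 members. The groups overlapped for all 10 members, while 6.45% of the genes tested had groups that did not overlap. *Cdkn1a* alone was higher in flt3L-/- in 3 of 3 pairs (14.2% of all genes were), and 0 members were lower in all pairs (11.5% of all genes were). The median log2 fold change was 0.062 over the 9 members and −0.00027 over all genes. The median absolute value was 0.17 in both. By sorting date 0 members were called as well, against 0% of all genes. Among the 9 members, both libraries of date 1 stood above the other 4 for 0 (8.86% of all genes) and below them for 1 (11.4%), those of date 2 above for 0 (5.07%) and below for 2 (5.19%), and those of date 3 above for 1 (11.7%) and below for 2 (13.1%).

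*Cdkn1a* (ENSMUSG00000023067, chromosome 17, 29090976 to 29100727 on GRCm38) encodes p21, the inhibitor that p53 induces and that holds cyclin E- and cyclin A-bound CDK2. By pair, from 1 to 3, its levels were 833, 641 and 842 CPM in wt and 1055, 701 and 1016 CPM in flt3L-/-. The flt3L-/- library was the higher one in each pair, but flt3L-/- library 2 lay below wt libraries 1 and 3, so that the groups overlapped. The genotype difference on the log2 scale was 0.25 ± 0.14 (SE, with a 95% interval of −0.12 to 0.62, unadjusted p = 0.147, adjusted p = 0.973 in edgeR), a 1.19-fold difference. Both libraries of date 2 lay below the other 4, a position that 5.19% of all genes held, and the test for date gave an adjusted p of 0.603 in edgeR. Of its exon bases, 7.68% are shared with the opposite-strand gene AC167363.2.

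*Cdkn1c* (ENSMUSG00000037664, chromosome 7, 143458339 to 143461050) encodes p57, an imprinted inhibitor known for keeping stem cells of several tissues quiescent. It had 355, 449 and 319 CPM in wt and 459, 384 and 328 CPM in flt3L-/-. The lowest library of each group came from date 3, and the order of the genotypes turned between pairs 1 and 2. Its fitted log2 fold change was 0.062 ± 0.17 (SE, with a 95% interval of −0.38 to 0.50, adjusted p = 0.981 in edgeR). Both date 3 libraries were below the other 4, as they were for 13.1% of all genes, with an adjusted p for date of 0.673 in edgeR. The antisense gene Gm44732 covers 30.7% of the exon bases of *Cdkn1c* and had 98.3 to 148 CPM. The libraries are unstranded, so reads of the overlap cannot be assigned to either gene.

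*Cdkn1b* (ENSMUSG00000003031, chromosome 6, 134920401 to 134925513) had 5.91, 6.95 and 13.3 CPM in wt and 6.70, 6.87 and 8.07 CPM in flt3L-/-. Apart from wt library 3, the values were close together. The log2 fold change of −0.19 ± 0.28 (SE, with a 95% interval of −0.90 to 0.53, adjusted p = 0.976 in edgeR) became 0.083 without pair 3. Date 3 held the 2 highest libraries and date 1 the 2 lowest, positions that 11.7% and 11.4% of all genes took. Wt library 3 also had the highest summed macrophage markers (1790 CPM, from 8 genes, none at 0 counts in any library) and lymphocyte and NK cell markers (771 CPM, from 8 genes, of which 1 was at 0 counts in a library). In flt3L-/- library 3, with 8.07 CPM of *Cdkn1b*, these sums were 93.2 and 105 CPM. In flt3L-/- library 2, with 6.87 CPM of *Cdkn1b*, they were 974 and 318 CPM. The part of these cells in the value of wt library 3 was not tested.

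*Cdkn2d* (ENSMUSG00000096472, chromosome 9, 21288410 to 21291407) encodes the INK4 protein p19, which is distinct from p19Arf. Its levels were 53.6, 45.4 and 68.1 CPM in wt and 60.4, 68.9 and 63.8 CPM in flt3L-/-. The flt3L-/- libraries were close together, with wt library 3 among them and the other 2 wt libraries below. On the log2 scale the difference was 0.23 ± 0.18 (SE, with a 95% interval of −0.24 to 0.69, adjusted p = 0.973 in edgeR), and without pair 2 it was 0.017.

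*Cdkn2c* (ENSMUSG00000028551, chromosome 4, 109660876 to 109667189), the gene of p18, had 19.5, 16.6 and 10.9 CPM in wt and 15.6, 16.1 and 11.2 CPM in flt3L-/-. The lowest library of both groups was that of date 3, and within pairs 2 and 3 the genotypes were nearly equal. Between the genotypes the log2 fold change was −0.11 ± 0.17 (SE, with a 95% interval of −0.56 to 0.35, adjusted p = 0.977 in edgeR). By date its unadjusted p was the smallest of the members, at 0.0610 (adjusted p = 0.602 in edgeR), and 8.28% of all genes had an unadjusted p for date under 0.05. The date 3 libraries, which were lowest for *Cdkn1c* and *Cdkn2c*, also had the lowest summed fibroblast markers (3624 and 7566 CPM from 8 genes, none at 0 counts, against 7724 to 17996 CPM in the other 4 libraries). Among the other 4 libraries, flt3L-/- library 1 had 7724 CPM of these markers, with the highest *Cdkn1c* level (459 CPM) and 15.6 CPM of *Cdkn2c*. Wt library 1 had 17996 CPM of them, with 355 CPM of *Cdkn1c* and the highest *Cdkn2c* level (19.5 CPM). The part of the fibroblasts in these levels was not tested.

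*Cdkn2b* (ENSMUSG00000073802, chromosome 4, 89306299 to 89311039), the gene of p15 and a known target of TGF-β signaling, had 8.24, 4.19 and 5.14 CPM in wt and 5.86, 6.32 and 6.89 CPM in flt3L-/-. The wt libraries held both the highest and the lowest value. The genotype difference on the log2 scale was 0.17 ± 0.32 (SE, adjusted p = 0.977 in edgeR), and its 95% interval, −0.65 to 1.003, was the widest of the members tested.

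*Cdkn2a* (ENSMUSG00000044303, chromosome 4, 89274471 to 89294653) had 13, 6 and 10 counts in wt and 11, 8 and 14 counts in flt3L-/-. In CPM these were 0.505, 0.233 and 0.372 in wt and 0.401, 0.339 and 0.554 in flt3L-/-, so every library was above the floor of 3 counts and below the 1 CPM required for the test. The exact 95% Poisson interval, which covers counting error only, ran from 0.0854 to 0.507 CPM in the lowest library and from 0.303 to 0.930 CPM in the highest. A fit without the filter gave a log2 fold change of 0.25 with a standard error of 0.78 (adjusted p = 0.993 in edgeR). With 6 to 14 counts per library and 3 libraries per group, no difference between the genotypes was detected, and a small one could not have been. The gene count does not separate the p16Ink4a from the p19Arf transcript.

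**Figure D2:**
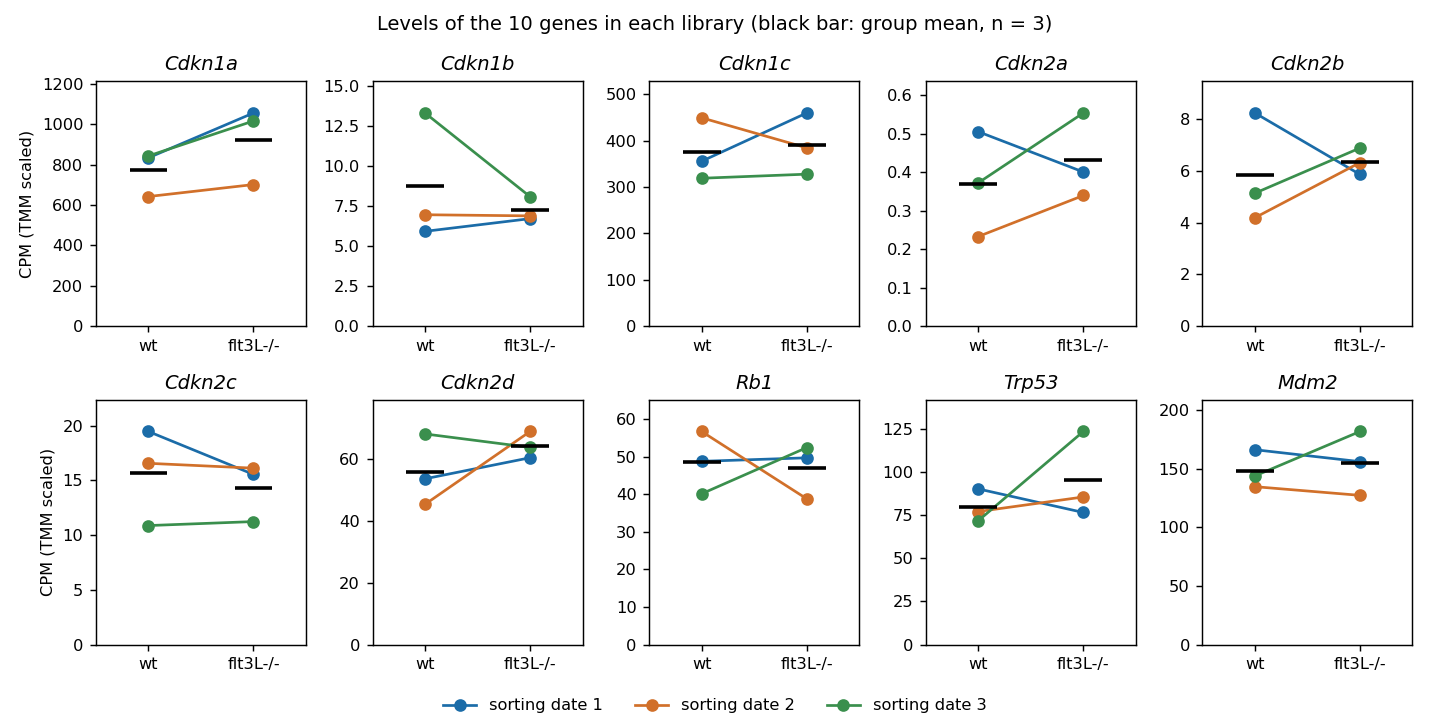
CPM of each gene in each library, with wt on the left and the libraries labelled flt3L-/- on the right of each panel, lines joining the libraries of 1 sorting date and black bars at the group means (n = 3). The lines all point upward for *Cdkn1a* (833 to 1055, 641 to 701 and 842 to 1016 CPM), and in every other panel the lines of different dates point in opposite directions.

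*Rb1* (ENSMUSG00000022105, chromosome 14, 73183673 to 73325822), whose product is the pocket protein that CDK4, CDK6 and CDK2 phosphorylate, had 48.8, 56.7 and 40.1 CPM in wt and 49.7, 38.8 and 52.4 CPM in flt3L-/-. Both groups spanned almost the same range. Its fitted log2 fold change was −0.044 ± 0.22 (SE, with a 95% interval of −0.61 to 0.52, adjusted p = 0.989 in edgeR), and within pairs it ran from −0.55 to 0.38. *Lpar6*, which lies on the opposite strand within the gene and had 99.0 to 153 CPM, shares 6.78% of the exon bases of *Rb1*, and *Rcbtb2* shares 8.11%, so some of these reads cannot be assigned.

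*Trp53* (ENSMUSG00000059552, chromosome 11, 69580359 to 69591873) had 90.3, 77.2 and 71.9 CPM in wt and 76.6, 85.6 and 124 CPM in flt3L-/-. The flt3L-/- library of date 3 stood above the other 5, which lay together. On the log2 scale the difference was 0.23 ± 0.23 (SE, with a 95% interval of −0.36 to 0.82, adjusted p = 0.973 in edgeR), and without pair 3 it was −0.044.

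*Mdm2* (ENSMUSG00000020184, chromosome 10, 117688875 to 117710758) had 166, 135 and 144 CPM in wt and 156, 127 and 182 CPM in flt3L-/-. Its highest library was the same flt3L-/- library 3 as for *Trp53*, and the groups overlapped. Between the genotypes the log2 fold change was 0.055 ± 0.15 (SE, with a 95% interval of −0.33 to 0.44, adjusted p = 0.981 in edgeR), with −0.087 when pair 3 was left out. The libraries of date 2 were the lowest 2 for *Mdm2* as for *Cdkn1a*, and *Mdm2* had an adjusted p for date of 0.678 in edgeR. Per length, *Mdm2* stood at 1.17 to 1.62 times the level of *Trp53* in the same library.

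**Figure D3:**
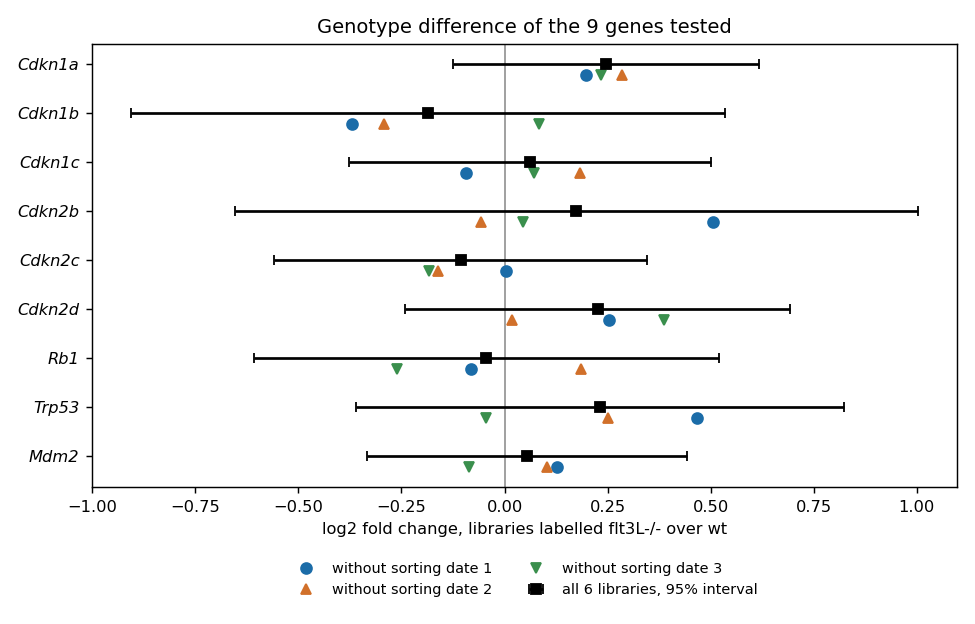
Log2 fold change of the libraries labelled flt3L-/- over wt for the 9 genes tested, with black squares and 95% intervals from all 6 libraries and coloured marks for the fits without each sorting date. Every interval includes 0, and the marks stay to the right of 0 for *Cdkn1a* (0.20 to 0.28) and *Cdkn2d* (0.017 to 0.39) only.

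The other genes of the pathway were taken from 7 lists. Among the Rb family and E2F factors, 11 of 12 genes were tested, 1 had an unadjusted p under 0.05 and was higher (1.11% of all genes were called higher in this way), and 0 were lower (2.49% of all genes). That gene was *E2f7*, an E2F that represses its targets, with 27.4, 24.7 and 32.7 CPM in wt and 42.4, 26.7 and 59.4 CPM in flt3L-/-. It was higher in 3 of 3 pairs (14.2% of all genes were) with overlapping groups, and its log2 fold change was 0.54 ± 0.20 (SE, unadjusted p = 0.0426, adjusted p = 0.973 in edgeR). *Rbl2*, the gene of the pocket protein p130, which is known from quiescent cells, was the most abundant pocket protein gene after scaling for length, at 14.2 CPM per kb, with a log2 fold change of −0.36 ± 0.18 (SE, adjusted p = 0.973 in edgeR). The opposite-strand genes *Aktip* and Gm45464 share 9.17% and 11.8% of the exon bases of *Rbl2*, so some of its reads cannot be assigned. *E2f4*, the E2F that partners p130, had 21.8 CPM per kb and a log2 fold change of 0.11. For *Tfdp2*, a dimerization partner of E2F, the log2 fold change was −0.28, with lower values in flt3L-/- in 3 of 3 pairs (11.5% of all genes were lower in all pairs). Its unadjusted p for date was 0.00851 (adjusted p = 0.598 in edgeR).

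Of the cyclins and their kinases, 16 of 19 genes were tested, and 0 had an unadjusted p under 0.05 in either direction. The most abundant per length were *Cdk4*, at 41.0 CPM per kb, and *Ccnd3*, the gene of cyclin D3, at 31.3 CPM per kb. Their log2 fold changes were 0.11 and 0.19, with 0.045 to 0.21 for *Cdk4* and 0.0085 to 0.31 for *Ccnd3* when a pair was left out. *Cdk1* and *Ccnb1* (cyclin B1), which act together at the entry into mitosis, had group means of 0.958 and 1.20 CPM and of 0.655 and 0.645 CPM in wt and flt3L-/-. *Ccna2* (cyclin A2) averaged 7.39 and 8.09 CPM. These genes were added after their values were seen. The values are not scaled for length and are not compared between the genes. Of the exon bases of *Ccna2*, 12.5% are shared with the opposite-strand gene *Exosc9*, so some of its reads cannot be assigned. The smallest unadjusted p-values of this list were those of *Mnat1*, a subunit of the CDK-activating kinase (log2 fold change 0.40), and *Ccne2*, the gene of cyclin E2 (0.30), each with an adjusted p of 0.973 in edgeR. Both were higher in 3 of 3 pairs (14.2% of all genes were). In pair 1, *Ccne2* was nearly equal, at 17.4 CPM in wt and 17.6 CPM in flt3L-/-. The opposite-strand gene *Ints8* shares 17.4% of the exon bases of *Ccne2*, so some of its reads cannot be assigned.

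Among the 24 E2F targets and markers of cycling cells, all tested, the count under an unadjusted p of 0.05 was again 0 in both directions, and the median log2 fold change was 0.11. *Pcna*, the clamp of the DNA polymerases, and *Mcm6*, a subunit of the replicative helicase, were the most abundant at 31.6 and 18.3 CPM per kb. *Cdc6*, which loads that helicase, had 2.53, 2.60 and 3.13 CPM in wt and 3.31, 4.67 and 6.49 CPM in flt3L-/-. Named for the smallest p of the list, it had groups that did not overlap, as 6.45% of all genes did. Its log2 fold change was 0.76 ± 0.30 (SE, unadjusted p = 0.0511, adjusted p = 0.973 in edgeR). The proliferation marker *Mki67* averaged 3.47 CPM in wt and 3.09 CPM in flt3L-/-, and the mitotic kinase gene *Plk1* 0.835 and 0.831 CPM. Both genes were added after their values were seen, and these values are not scaled for length.

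For the p53 family and its regulators, 15 of 16 genes were tested with 0 under an unadjusted p of 0.05, and the median log2 fold change was −0.017. The ubiquitin ligase gene *Rchy1* and the phosphatase gene *Ppm1d*, both known p53 targets that curb p53, had 13.5 and 8.91 CPM per kb and log2 fold changes of 0.089 and 0.25. That of *Ppm1d* was 0.0031 without pair 3 and 0.52 without pair 2. *Kat5*, an acetyltransferase of p53, had the smallest unadjusted p (log2 fold change 0.26, adjusted p = 0.973 in edgeR). Having been named for that p, it had groups that did not overlap (24.5 to 26.8 CPM in wt, 30.4 to 31.2 CPM in flt3L-/-), as 6.45% of all genes did. The opposite-strand gene *Rnaseh2c* shares 12.1% of the exon bases of *Kat5*, so some of its reads cannot be assigned. All 29 p53 target genes were tested, and 0 had an unadjusted p under 0.05. *Btg2* (365 CPM per kb) and *Plk2* (351 CPM per kb) were the most abundant of them, each above the mean level of *Cdkn1a*, and both had a log2 fold change of 0.17. The stress cytokine *Gdf15* had 39.7, 54.5 and 48.3 CPM in wt and 50.2, 56.7 and 157 CPM in flt3L-/-, with the library of date 3 far above the other 5. Its log2 fold change of 0.69 ± 0.36 (SE, adjusted p = 0.973 in edgeR) became 0.20 without pair 3. *Trp53inp1*, which promotes p53 activity, had the smallest unadjusted p of the list (log2 fold change −0.32, adjusted p = 0.973 in edgeR). It was lower in flt3L-/- in 3 of 3 pairs (11.5% of all genes were), though nearly equal in pair 1 (88.1 CPM in wt, 87.3 CPM in flt3L-/-).

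Polycomb proteins are known to silence the *Cdkn2a* locus. All 12 genes of the Polycomb and H3K27 demethylase list were tested, and 0 had an unadjusted p under 0.05. *Ezh1*, the methyltransferase of resting cells, had 24.8 CPM per kb and a log2 fold change of 0.15, and *Rnf2*, the E3 ligase of the complex PRC1, had 13.3 CPM per kb and −0.00082. The demethylase genes *Kdm6b* and *Kdm6a* had log2 fold changes of 0.36 and 0.25, both with an adjusted p of 0.973 in edgeR, and ran from 0.23 to 0.57 and from 0.073 to 0.36 when a pair was left out. The 11 genes for degradation of p27 and p21 were all tested, with 0 under an unadjusted p of 0.05. *Skp1a*, a subunit of SCF ligases, had 99.1 CPM per kb and *Ddb1*, an adaptor of CUL4 ligases, 40.7 CPM per kb, with log2 fold changes of 0.047 and −0.096. *Rnf123*, a ligase of cytoplasmic p27, had 89.7, 89.5 and 84.1 CPM in wt and 70.1, 78.3 and 72.6 CPM in flt3L-/-. Its groups did not overlap (nor did those of 6.45% of all genes), and the log2 fold change was −0.25 ± 0.12 (SE, unadjusted p = 0.0963, adjusted p = 0.973 in edgeR). It was named for its small p, so this separation is no separate finding. The opposite-strand gene *Gmppb* shares 13.9% of its exon bases, so some of its reads cannot be assigned. *Rbx1*, the RING subunit of the cullin ligases, had a log2 fold change of 0.21 (adjusted p = 0.973 in edgeR).

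**Figure D4:**
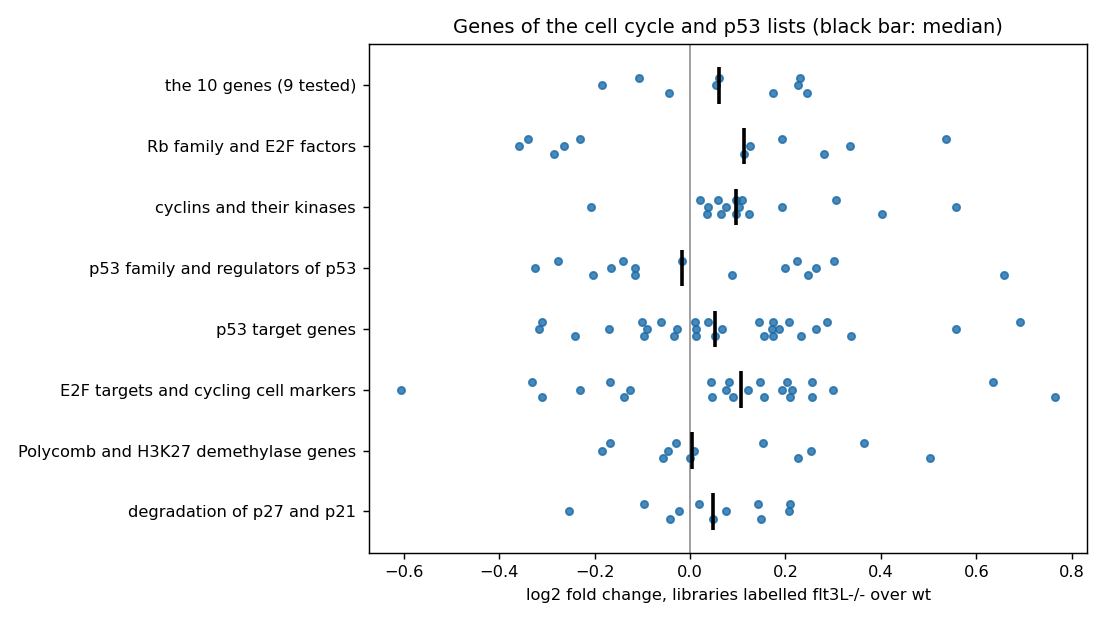
Log2 fold change of the libraries labelled flt3L-/- over wt for each gene tested among the 10 genes and the 7 pathway lists, with a point for each gene and a black bar at the median of the list. Medians lie between −0.017 and 0.11, and *Cdc6* (0.76) is the point farthest to the right.

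Across the 6 libraries, the genes whose log2 CPM ran most like *Cdkn1a* were *Clic4* (Pearson r = 0.999), *Ankrd29* (0.989) and *Shoc2* (0.985), and 88 of the genes tested had an r over 0.9. For *Cdkn1c* they were *March8* (0.988), *Gtdc1* (0.974) and *Pcdh19* (0.972), with 119 genes over 0.9. For *Cdkn2d* they were *Rfc4* (0.992), *Ifit1bl1* (0.986) and *Slc4a8* (0.985), with 42 genes over 0.9. The libraries share sorting dates and differ in cell makeup, and with 6 points among 13475 genes such values are a description only.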

How the data were processed

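RNA-seq of 6 libraries was used, 3 per genotype. The authors mapped single reads of 81 bases with STAR 2.5.2a to mm10, allowing 10 hits, and counted those starting in exons of Ensembl 88 genes with QuasR 1.18.0. They deposited raw counts per gene, unstranded, with 24370913 to 31145519 counts per library. Reads with several equally good hits were placed at random, so counts of near-identical copies are uncertain. Unstranded reads also cannot be assigned where exons of opposite strands overlap. This holds for 19.7% of the exon bases of *Cdk4* (with *Tspan31*) and 18.0% of those of *Rchy1* (with *Thap6*).

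Counts of 13475 protein-coding genes above 1 CPM in 2 or more libraries were analysed with edgeR 4.0.16 on R 4.3.3 (TMM, glmQLFTest, legacy = TRUE, sorting date as block). DESeq2 1.42.0 was an alternative. Within-pair log2 differences used a prior count of 2. Standard errors came from the fold change and its F statistic. Positions and exon lengths came from GENCODE for GRCm38, which held 50376 of the 50600 genes. The script was tested on simulated data.

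The pairing comes from the sorting dates in the labels. Deviations from the group means correlated at 0.180, 0.104 and 0.116 across genes within a date, and at −0.354 to 0.247 between dates. No library was a copy of another (lowest chi-square per degree of freedom 54.6).

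The members and lists were chosen with earlier results of these data known. By rule, all 10 members were named, and from each list the 2 genes highest in CPM per kb and the 2 with the smallest p. *Ccna2*, *Ccnb1*, *Cdk1*, *Mki67* and *Plk1* were added after their values were seen. For the 3 most abundant members, the 3 genes with the highest Pearson r were named.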

Additional observations from a re-analysis of the deposited data

How the results depend on the processing

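Of the members, 0 were called by genotype or date with RLE factors, library size only, no filter, all biotypes, legacy = FALSE, DESeq2 or a pair left out, and 0 by genotype without the replicate block, a fit with no test of date. DESeq2 called 21 genes by genotype and 389 by date, and leaving out a pair gave 0 to 112 genes by date (112 without pair 2). Without the replicate block, 0 genes were called by genotype, and 262 had an unadjusted p under 0.05 against 484 with it. The block changed no call. That count was 980 without pair 2 and 249 without pair 3. With all libraries kept, the sign of each member held in all 63 fits, as did *Cdkn1a* at 0.21 to 0.26. Leaving out a pair turned the sign in 7 of 27 member fits. The log2 fold changes then ran from −0.37 to 0.083 for *Cdkn1b*, −0.044 to 0.47 for *Trp53*, −0.087 to 0.13 for *Mdm2* and −0.23 to 0.12 for *Ddb1* (sign turned without pair 3), from −0.093 to 0.18 for *Cdkn1c*, −0.18 to 0.0036 for *Cdkn2c* and −0.084 to 0.13 for *Rnf2* (without pair 1), from −0.057 to 0.51 for *Cdkn2b* and −0.26 to 0.18 for *Rb1* (without pair 2), and from −0.037 to 0.19 for *Skp1a* (without pair 2 or 3). *Rnf2* stood at 0.0038 without the filter. The cause was not tested. The intervals rest on 2 residual degrees of freedom and 2.79 prior ones that edgeR draws from all genes, and they are wide. The narrowest of the members, that of *Cdkn1a*, ran from −0.12 to 0.62.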
